A study of Mus musculus with 6 samples.

Results

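Mediator is the protein complex that carries signals from DNA-bound transcription factors to RNA polymerase II, and the transcripts of its subunits were examined in the heart ventricles of mice with and without a knockout of the subunit gene Med12. The members were the rows of the deposited count table whose symbol names a Mediator subunit. All 33 were found among the 24062 symbols of the table, 26 of them core subunits and 7 subunits of the kinase module. RNA-seq was done on both ventricles of male C57/Bl6N mice at postnatal day 1. The control group (CTL, CreNEG) had no Cre recombinase and the Med12cKO group (CrePOS) carried Cre for a cardiac-specific knockout of Med12, with 3 libraries each. The promoter that drives Cre, the loxP sites of Med12 in either group and the number of mice behind each library are not given in the sources used here. Cre was carried by Med12cKO mice alone, so Cre itself and the loss of Med12 cannot be told apart in any difference below. In ventricle RNA, fewer cells of a type and less RNA per cell also cannot be told apart.

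The core of Mediator is described in parts called head, middle and tail, held together by the scaffold subunit Med14. The head and middle contact RNA polymerase II, and the tail is the main landing site for transcription factors. The kinase module docks reversibly on the core and consists of the cyclin-dependent kinase Cdk8 or its paralogue Cdk19, cyclin C (Ccnc), Med12 or Med12l, and Med13 or Med13l. Med12 activates the kinase and Med13 links the module to the core. While the module is bound, the core does not engage the polymerase. In the heart, Med13 is known as a target of the muscle microRNA miR-208a and as a regulator of metabolism.

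Totals ran from 8453346 to 10911698 counts per library, and 13629 genes were tested after a filter on low counts. All 33 members passed the filter, and the lowest count of a member in any library was 34. Values below are CPM, the share of a library's counts in parts per 1e6, scaled by the trimmed mean of M-values (TMM). The 12 heart muscle genes fixed as markers were present in every library. Their summed level was 48162 to 62943 CPM in CTL and 40063 to 50922 CPM in Med12cKO. The log2 fold change of Med12cKO against CTL was below 0 for 11 of these 12 genes and above 0 for 1. Their median was −0.26, beside 0.0081 for all genes tested. In 2 of them every Med12cKO library was below every CTL library, which was so for 3.64% of all genes tested. None was called by edgeR, and DESeq2 called Ryr2 (adjusted p = 0.000106). CTL replicate 3 and Med12cKO replicate 1 held T-cell transcripts, with 10 thymus genes averaging 73.2 and 73.6 CPM against 0.314 to 0.518 CPM in the other 4. Summed over 12 skeletal muscle genes, CTL was at 83.9 to 119.7 CPM and Med12cKO at 289 to 438 CPM. Casq1 was the most abundant of these, and the other 11 genes summed to 46.7, 53.9 and 51.8 CPM in CTL and to 245, 66.7 and 49.0 CPM in Med12cKO replicates 1 to 3. Over 6 smooth muscle and pericyte genes the sums were 706 to 1264 CPM in CTL and 1190 to 1951 CPM in Med12cKO. Here Acta2 was the most abundant, and the other 5 summed to 457, 508 and 418 CPM in CTL and to 418, 723 and 438 CPM in Med12cKO. Over 5 immune genes the sums were 127 to 220 CPM in CTL and 97.7 to 233 CPM in Med12cKO, highest in the libraries with T-cell transcripts. Of these genes Ptprc was at 99.1 CPM in CTL replicate 3 and 92.8 CPM in Med12cKO replicate 1. In the other 4 libraries Ptprc was at 5.81 to 8.17 CPM. Of 7 erythroid genes the 4 hemoglobin genes were listed at 0 in every library, and no gene of the other cell type lists was. Alas2, another erythroid gene, had 366 to 939 counts a library, so the hemoglobin values of 0 cannot be read as absence. What produced them was not tested. The part of these cells in the results below was not tested. The libraries also differed in how transcript length related to level. For each library, the level of each gene was taken relative to its mean over all 6 libraries. The fitted value for genes with 10 kb of exon minus that for genes with 1 kb was, on the log2 scale, −0.24 in CTL replicate 1, 0.21 in CTL replicate 2 and 0.06 in CTL replicate 3. It was 0.03, 0.31 and −0.38 in the Med12cKO libraries, in the same order.

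Med12, Med13 and Cdk8 of the kinase module are shown with the sequence just upstream of their start, since the first is the targeted gene and the others are partners it joins. The sequences are from RefSeq (GRCm38.p6), 5′ to 3′ on the gene's strand, and end before the first annotated base of the gene. Capitals mark the SP/KLF motif GGGCGG or its reverse complement.
Med12, chrX:101273841-101274029, plus strand: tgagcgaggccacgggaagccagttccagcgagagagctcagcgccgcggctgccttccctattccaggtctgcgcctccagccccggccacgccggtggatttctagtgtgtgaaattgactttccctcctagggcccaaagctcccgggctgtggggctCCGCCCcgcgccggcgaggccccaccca
Med13, chr11:86357603-86357846, minus strand: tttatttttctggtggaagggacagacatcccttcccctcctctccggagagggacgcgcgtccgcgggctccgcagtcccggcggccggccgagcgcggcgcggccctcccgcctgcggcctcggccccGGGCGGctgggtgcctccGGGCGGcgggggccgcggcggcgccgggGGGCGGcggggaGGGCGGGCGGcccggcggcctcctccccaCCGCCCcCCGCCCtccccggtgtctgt
Cdk8, chr5:146231000-146231229, plus strand: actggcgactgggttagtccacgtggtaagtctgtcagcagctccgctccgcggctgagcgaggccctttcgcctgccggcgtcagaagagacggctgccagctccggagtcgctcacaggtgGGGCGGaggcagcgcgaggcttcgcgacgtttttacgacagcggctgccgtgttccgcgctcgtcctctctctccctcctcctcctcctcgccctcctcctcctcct
The Med12 stretch held 1 SP/KLF match, the Med13 stretch 7 and the Cdk8 stretch 1, and their GC content was 68.3%, 81.1% and 67.0%. RefSeq windows of 300 bases around the start were found for 28 of the 33 members, and 6 motifs were searched in them on both strands. SP/KLF (GGGCGG) was in 19 of the 28 members (67.9%) and in 68.4% of the 10193 tested genes with a window. ETS (CCGGAAG) was in 8 members (28.6%, against 19%), namely Med4, Med6, Med10, Med14, Med15, Med17, Med18 and Med19. The CCAAT box was in 11 members (39.3%, against 42.5%). The TATA box (TATAAA) was in 3 members (10.7%, against 8.79%). YY1 (AAGATGGC) was in 1 member, Med31 (3.57%, against 4.99%), and the palindromic NRF1 motif in 0 (against 2.27%). These are matches of letters, not measured binding.

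Med12 is the targeted gene and was the member with the largest difference between the groups. It lies on chromosome X, 101274030 to 101297465, plus strand. Its level was 103, 176 and 113 CPM in CTL libraries 1, 2 and 3, and 61.6, 85.0 and 41.3 CPM in Med12cKO libraries 1, 2 and 3. Every Med12cKO library was below every CTL library, which was so for 3.64% of all genes tested. Against the CTL mean of 131 ± 39.3 CPM (SD, n = 3), the Med12cKO libraries stood at 47.1%, 65.0% and 31.6%. The log2 fold change was −1.06 (SE 0.30, 95% interval −1.77 to −0.35), so the interval runs from 0.292 to 0.786 of the control level. On log2 CPM, the exact two-sided permutation test gave p = 0.10, the smallest value that 3 against 3 libraries allow. Over all genes, edgeR's quasi-likelihood test with Benjamini-Hochberg adjustment gave an unadjusted p of 0.0097 and an adjusted p of 0.765, so Med12 was not called, while DESeq2 called it (adjusted p = 0.024). The 2 tools called 0.022% and 0.489% of the genes they tested.

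Transcript therefore remained in each library labelled Med12cKO, with 384 to 861 counts of Med12. The table gives 1 count per gene, so the deleted exons cannot be read apart from the rest of the gene. Gm21986, a gene model that overlaps Med12 on its own strand, covers 9.72% of the Med12 exon bases. Within each group the libraries had the same order in Med12 as in the length trend above, with CTL replicate 2 and Med12cKO replicate 2 highest and CTL replicate 1 and Med12cKO replicate 3 lowest. With the trend of exon length and GC content removed, the log2 fold change of Med12 was −1.06 (SE 0.24, edgeR adjusted p = 0.358). The order within each group stayed the same. The log2 ratios to the CTL mean were then −0.23, 0.38 and −0.15 in CTL replicates 1 to 3, in place of −0.30, 0.47 and −0.17. In Med12cKO replicates 1 to 3 they were −1.01, −0.69 and −1.52, in place of −1.04, −0.58 and −1.62. Genes of cells other than heart muscle were present throughout. The 6 fibroblast genes summed to 7283 to 8339 CPM in CTL and to 9819, 9398 and 6196 CPM in Med12cKO replicates 1 to 3, and the 6 endothelial genes to 1219 to 1421 CPM in CTL and to 1149, 1387 and 1133 CPM in Med12cKO. None of these genes was at 0, and their part in the Med12 level was not tested.

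**Figure D1:**
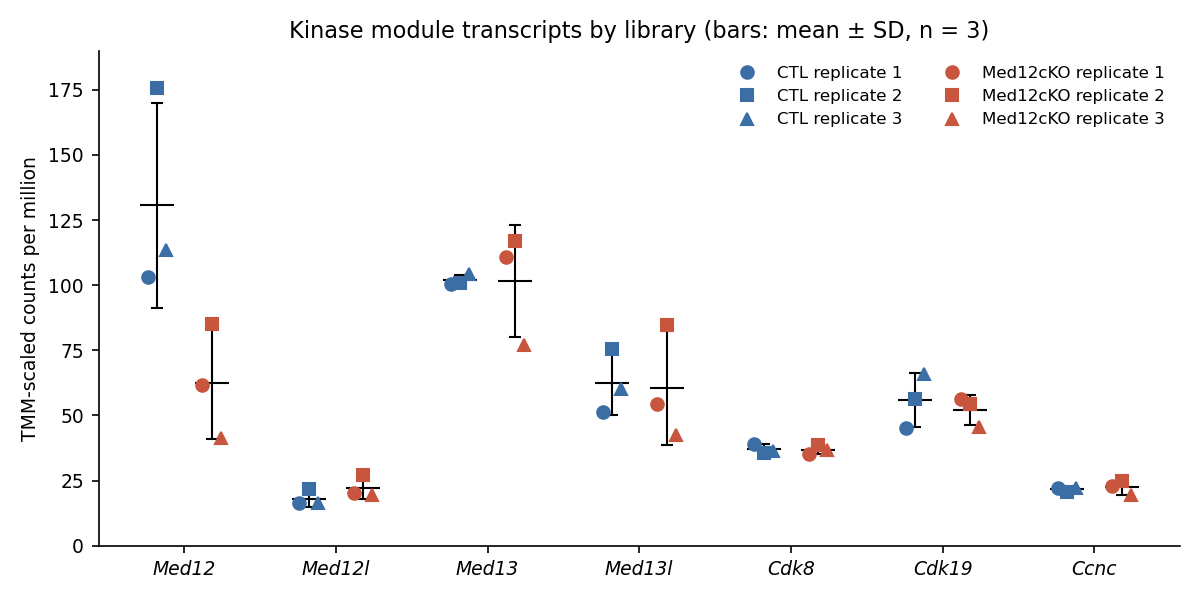
TMM-scaled CPM (vertical axis, from 0) of the 7 kinase module genes in each CTL (blue) and Med12cKO (red) library, with horizontal lines at the mean and error bars of 1 SD (n = 3). The 3 Med12cKO libraries lie below the 3 CTL libraries for Med12 alone, and Med12cKO replicates 2 and 3 stand apart in Med13 (117 against 76.9 CPM) and Med13l (84.8 against 42.5 CPM).

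The other 6 kinase module genes did not pass the test, and in each the groups overlapped. Their log2 fold changes ran from −0.10 to 0.31, with unadjusted p from 0.142 to 0.982 (edgeR). The largest was that of Med12l, the paralogue that can take the place of Med12 (chromosome 3, 59005825 to 59318682, plus strand). It measured 16.2, 21.6 and 16.3 CPM in CTL and 20.2, 27.1 and 19.6 CPM in Med12cKO. The lowest Med12cKO library was below CTL replicate 2, so the groups overlapped. The log2 fold change was 0.31 (SE 0.19, 95% interval −0.12 to 0.73), which includes no change and a 1.66-fold rise. Of the exon bases of Med12l, 17.3% are shared with models on the opposite strand, so its count and its share of the pair below are uncertain.

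Med13, the subunit that tethers the module to the core (chromosome 11, 86267033 to 86357602, minus strand), measured 100, 101 and 104 CPM in CTL and 111, 117 and 76.9 CPM in Med12cKO. The CTL libraries lay within a narrow band, and the Med12cKO libraries fell on both sides of it, with a coefficient of variation of 1.96% in CTL and 21.2% in Med12cKO. The group means were the same to 3 digits (102 CPM), with a 95% interval of 0.780-fold to 1.27-fold. Without Med12cKO replicate 3 the log2 fold change of Med13 was 0.16 (SE 0.09). With the trend of exon length and GC content removed, the Med12cKO log2 ratios of Med13 to the CTL mean were 0.09, −0.02 and −0.20. Before that they were 0.12, 0.20 and −0.40. In CTL the ratios of Med13 were 0.03, −0.06 and 0.03 after removal and −0.02, −0.01 and 0.03 before. Its paralogue Med13l (chromosome 5, 118560679 to 118765438, plus strand) measured 51.3, 75.6 and 60.1 CPM in CTL and 54.4, 84.8 and 42.5 CPM in Med12cKO. Its 95% interval, from 0.643-fold to 1.47-fold, was the widest of the members other than Med12. Changes within that interval cannot be told from no change here, and the interval is not a limit of detection.

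Cdk8 (chromosome 5, 146231230 to 146302874, plus strand) measured 39.1, 35.4 and 36.3 CPM in CTL and 35.1, 38.5 and 36.7 CPM in Med12cKO. All 6 libraries lay close together, and the 95% interval of 0.830-fold to 1.19-fold includes no change. Cdk19 (chromosome 10, 40339564 to 40483818, plus strand) measured 45.2, 56.2 and 66.0 CPM in CTL and 56.5, 54.3 and 45.5 CPM in Med12cKO. Its spread was larger among the CTL libraries than between the groups. Ccnc, the cyclin partner of both kinases (chromosome 4, 21727701 to 21759922, plus strand), measured 22.2, 20.7 and 22.3 CPM in CTL and 22.8, 25.0 and 19.3 CPM in Med12cKO, with a log2 fold change of 0.04 (SE 0.15).

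Paralogues were compared per kilobase of exon, since longer transcripts give more reads. In CTL, Med12 was at 16.97 ± 5.10 CPM per kb and Med12l at 1.41 ± 0.24 CPM per kb (SD, n = 3), so Med12l made up 8.67%, 6.92% and 7.97% of the pair in CTL replicates 1 to 3. In Med12cKO replicates 1 to 3 the share was 16.5%, 16.2% and 22.2%, above every CTL library. The sum of the pair was 18.4 ± 5.34 CPM per kb in CTL and 9.88 ± 3.139 CPM per kb in Med12cKO (n = 3). The higher share thus went with the lower Med12 level, and Med12l itself did not pass the test. For Med13l the share of its pair was 29.9 ± 4.12% in CTL and 29.1 ± 4.17% in Med12cKO (n = 3). For Cdk19 it was 71.4 ± 4.80% and 70.3 ± 2.72% (n = 3), so Cdk19 exceeded Cdk8 per kb of exon in all 6 libraries. These shares depend on the length used. Per kb of coding sequence Med12l made up 12.1% in CTL and 26.6% in Med12cKO, and Cdk19 58.0% and 56.7%. Cdk8 has long exons relative to its coding part (9832 against 1392 bases). In CTL, Med12 ranked 4 of the 33 members in level per kb of exon, and in Med12cKO it ranked 19.

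**Figure D2:**
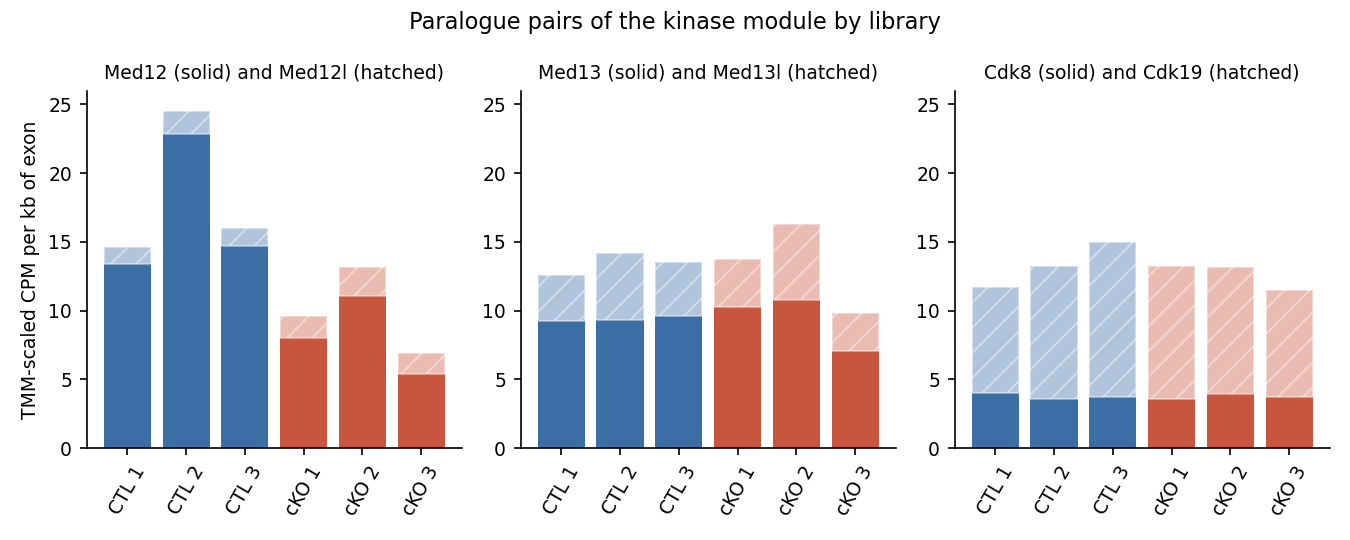
Level of each paralogue pair in each library as TMM-scaled CPM per kilobase of exon (vertical axes, from 0), with the first gene solid, the second hatched on top, CTL in blue and Med12cKO in red. The Med12 and Med12l bars are lower in the 3 Med12cKO libraries, where Med12l holds 16.2% to 22.2% of the pair against 6.92% to 8.67% in CTL.

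None of the 26 core subunits passed the test in either direction (edgeR adjusted p of 0.99988 each, with 0 at an unadjusted p under 0.05, and 0 called by DESeq2), and in none did the groups separate. Across all genes 3.78% had an unadjusted p under 0.05 and 8.23% had groups that did not overlap. The core log2 fold changes ran from −0.17 (Med29) to 0.16 (Med8), with a median of −0.012 beside 0.0081 for all genes tested. Of the 26 values 8 were above 0, beside 52.2% of all genes. With library totals as the only scaling 17 of 26 were above 0, so the split of signs depends on the scaling. The core median was then 0.017 beside 0.038 for all genes tested, so it was below that of all genes with either scaling. For 25 of the 26 the 95% interval lay within a 1.5-fold change in either direction, which was so for 61.3% of all genes tested. The exception was Med29, whose interval ran from 0.646-fold to 1.22-fold. The width of an interval depends on the level of the gene. With only 2 libraries a group, 16 of the 26 intervals were within that range, both without the 2 libraries with T-cell transcripts and in the 4 libraries whose sample description opens with the letter I. Of all genes tested, 36.6% and 40.3% were within it in these fits, in this order.

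**Figure D3:**
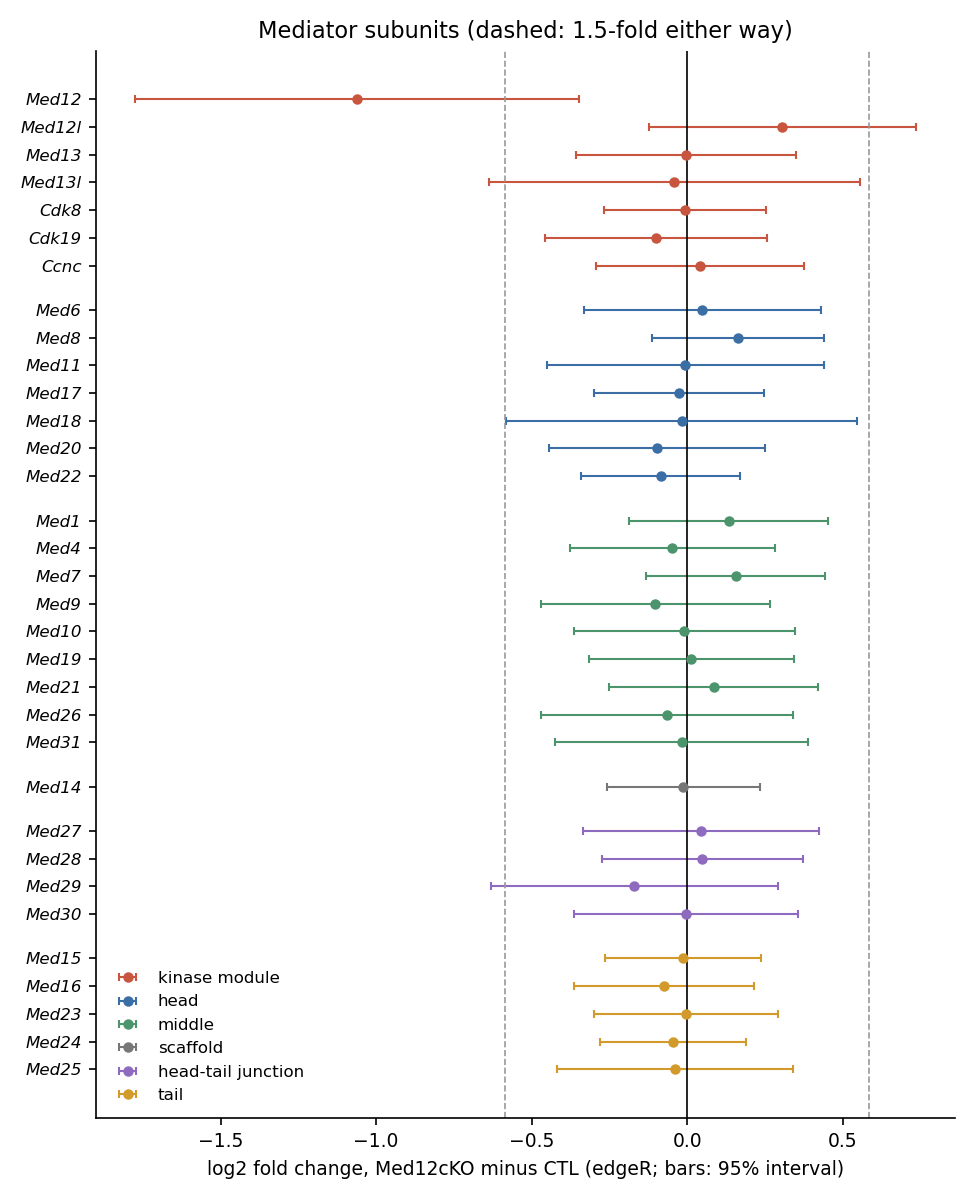
Log2 fold change of Med12cKO against CTL for the 33 members (horizontal axis; points, with bars for the 95% interval of edgeR's quasi-likelihood fit, n = 3 per group), by part of the complex, with dashed lines at a 1.5-fold change. Med12 is the member whose interval excludes 0, and Med12, Med12l, Med13l and Med29 have intervals that reach past a dashed line.

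Head subunits, which contact the polymerase, were at log2 fold changes from −0.10 to 0.16 over 7 genes. Med17, a central head subunit, measured 30.4, 29.0 and 30.5 CPM in CTL and 31.6, 27.3 and 29.4 CPM in Med12cKO. Med8 measured 34.8, 34.6 and 35.0 CPM in CTL and 40.3, 34.5 and 42.1 CPM in Med12cKO, so Med12cKO replicate 2 was at the CTL level and the other 2 were above it. Med18 was the least abundant core subunit per kb of exon, at 2.16 ± 0.08 CPM per kb in CTL (n = 3), with 34 to 47 counts a library. Med6, Med11, Med20 and Med22 complete the head, at 0.05, −0.0063, −0.10 and −0.09 on the log2 scale.

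Among the 9 middle subunits, Med1 is the one that nuclear receptors bind. It measured 53.9, 51.8 and 57.0 CPM in CTL and 53.2, 71.5 and 53.6 CPM in Med12cKO. Med12cKO replicate 2 alone was high, and the other 2 were within the CTL range. Med7, which forms the hinge of the middle part with Med21, measured 24.6, 23.6 and 25.4 CPM in CTL and 25.4, 29.3 and 27.4 CPM in Med12cKO (log2 fold change 0.16, SE 0.13). Of the exon bases of Med7, 21.2% are shared with a model on the opposite strand. Med26, which can recruit elongation factors, measured 14.7, 15.1 and 16.3 CPM in CTL and 13.6, 12.6 and 17.8 CPM in Med12cKO. Med9 was the most abundant member per kb of exon (23.6 ± 2.99 CPM per kb in CTL, n = 3). Med4, Med10, Med19, Med21 and Med31 had log2 fold changes from −0.05 to 0.09, and Med10 shares 92.8% of its exon bases with a model on the opposite strand, so its count is uncertain.

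The scaffold subunit Med14, which like Med12 lies on the X chromosome (12675369 to 12762073, minus strand), measured 70.5, 74.6 and 73.8 CPM in CTL and 74.0, 76.9 and 66.4 CPM in Med12cKO. The groups overlapped, and the interval of 0.836-fold to 1.18-fold was among the narrowest. Med27, Med28, Med29 and Med30, placed where head and tail meet, were at 0.05, 0.05, −0.17 and −0.0028 on the log2 scale. Med29 measured 17.1, 14.1 and 11.9 CPM in CTL and 11.1, 11.9 and 15.3 CPM in Med12cKO, with a wide spread in both groups.

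The 5 tail subunits, where many activators bind, all had values slightly below 0 (−0.07 to −0.0034), and none passed. Med15, known as a partner of SMAD and SREBP factors, measured 67.1, 71.5 and 74.4 CPM in CTL and 72.8, 64.8 and 73.6 CPM in Med12cKO. Med23, which the growth-factor-regulated factor Elk1 binds, measured 34.6, 39.8 and 38.6 CPM in CTL and 37.7, 41.9 and 33.3 CPM in Med12cKO. Med24 had the narrowest interval of the members, 0.824-fold to 1.14-fold. Med25 measured 99.1, 96.3 and 110 CPM in CTL and 97.9, 76.0 and 123 CPM in Med12cKO. Med12cKO replicate 2 lay below the CTL range and replicate 3 above it, as they did for Med16 (80.2 ± 1.39 CPM in CTL and 76.2 ± 11.3 CPM in Med12cKO, n = 3).

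Core and kinase module medians lay farthest apart in Med12cKO replicates 2 and 3, with opposite order. The median log2 ratio of the 26 core members to their CTL mean was −0.02, −0.16 and 0.15 in Med12cKO replicates 1 to 3. For the 6 kinase module members other than Med12 it was 0.05, 0.20 and −0.22. The kinase module minus the core was thus 0.07, 0.36 and −0.38 in Med12cKO and −0.08, 0.03 and −0.02 in CTL replicates 1 to 3. Each CTL library is part of the mean it is set against, which draws its ratios toward 0. The sizes in CTL and Med12cKO are therefore not directly comparable. Med12cKO replicates 2 and 3 thus stood on opposite sides of the controls, and the medians over the groups were close to 0 (−0.012 for the core and −0.0058 for the kinase module without Med12). Without Med12cKO replicate 3 these medians were −0.10 and 0.15, and without Med12cKO replicate 2 they were 0.05 and −0.08. The direction therefore turned with 1 library.

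Of the 26 core subunits, 16 had their lowest level of all 6 libraries in Med12cKO replicate 2 and 14 their highest in Med12cKO replicate 3. Among all genes tested 22.6% were lowest in the first of these libraries and 25.6% highest in the second. Of the 7 kinase module members, 4 were highest in Med12cKO replicate 2 (22.3% of all genes) and 4, Med12 among them, lowest in Med12cKO replicate 3 (23.4% of all genes). The coefficient of variation was larger in Med12cKO than in CTL for 21 of 26 core members (median of 5.45% in CTL and 13.8% in Med12cKO), and for 65.6% of all genes tested (medians of 11.2% and 15.6%).

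**Figure D4:**
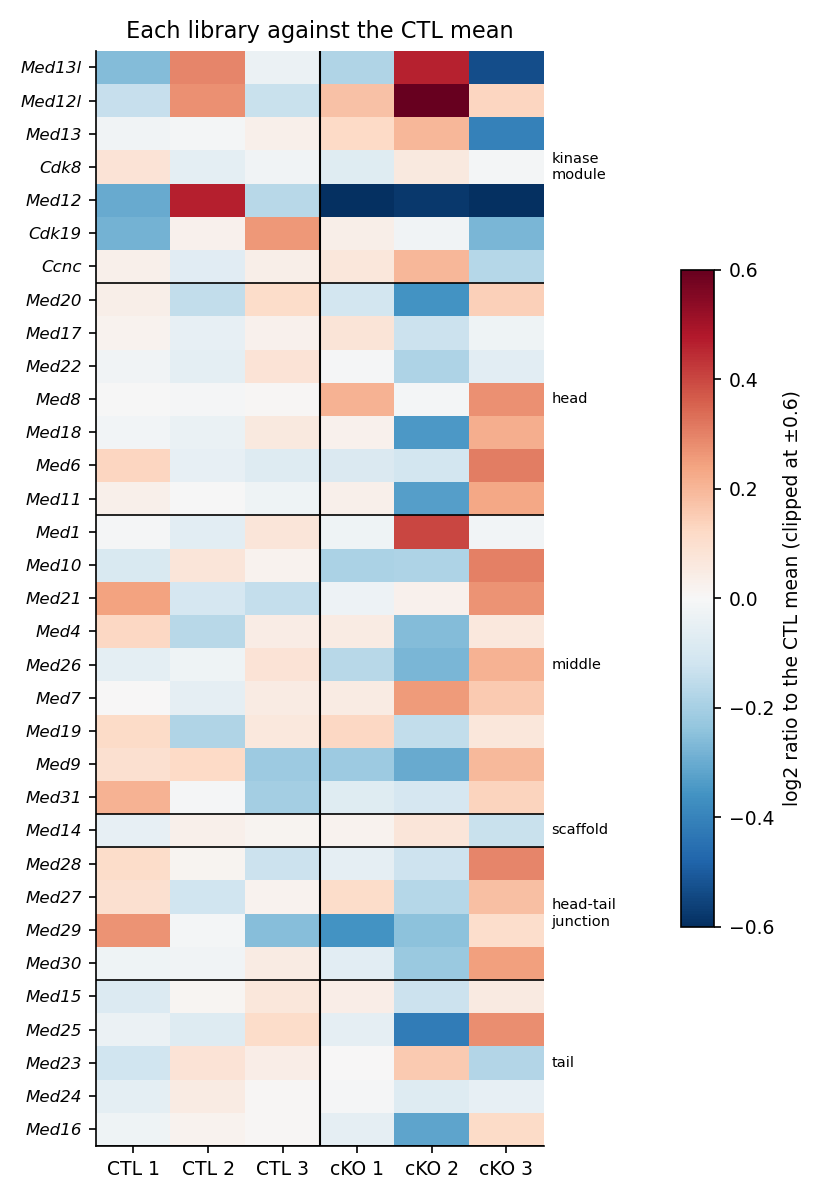
Log2 ratio of each member (rows, by part of the complex and then from the longest to the shortest exon length) to its CTL mean in each library (columns; cKO stands for Med12cKO), with red above and blue below the CTL mean and colours clipped at 0.6. In the column cKO 2 most core rows are blue and 5 of the 7 kinase module rows are red, and in cKO 3 20 of 26 core rows are above 0. Each CTL library is part of the CTL mean, which draws its ratios toward 0.

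The transcripts of the kinase module are longer than those of the core, with a median exon length of 9832 bases (5115 to 15427) against 3436.5 bases (1046 to 11642). Across the 32 members other than Med12, the log2 ratio to the CTL mean and exon length had a Spearman correlation of −0.55, 0.22 and 0.19 in CTL replicates 1 to 3 and of 0.15, 0.49 and −0.55 in Med12cKO replicates 1 to 3. Over 13543 genes tested the correlations were −0.37, 0.33 and 0.03 in CTL and −0.01, 0.36 and −0.40 in Med12cKO. These are correlations across genes within 1 library, which share that library's depth and scaling, and are given as a description. Within the core, the 18 members under 5 kb of exon had a median of −0.18 in Med12cKO replicate 2 and 0.19 in replicate 3, and the 8 members of 5 kb or more had −0.10 and 0.02. When the trend of exon length and GC content over all genes was removed, the kinase module minus the core was 0.18 in Med12cKO replicate 2 and −0.16 in replicate 3, in place of 0.36 and −0.38. What produced the length trend was not tested.

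**Figure D5:**
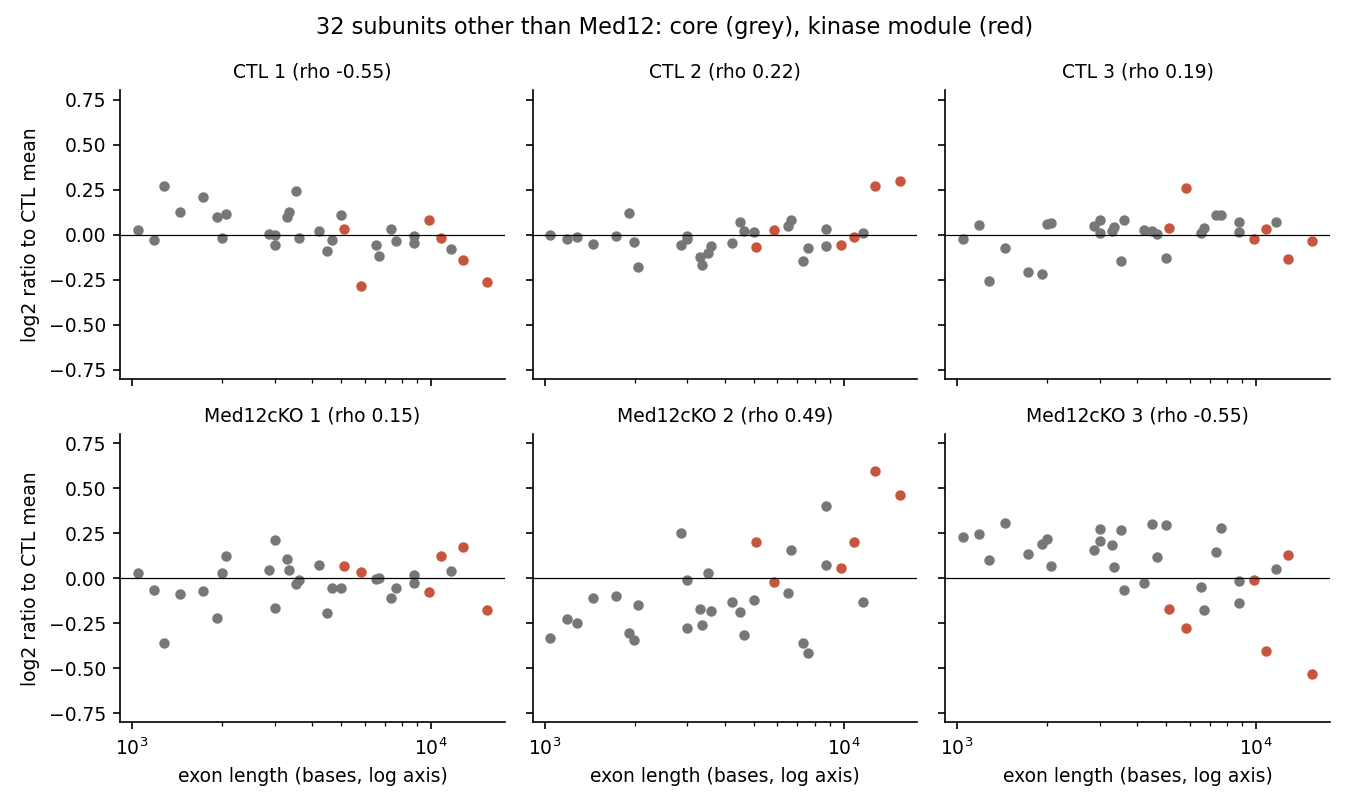
Log2 ratio to the CTL mean (vertical axes) against exon length in bases (horizontal log axes) for the 32 members other than Med12, 1 panel per library, with core members in grey and kinase module members in red and the Spearman correlation (rho) above each panel. Long members are low and short members high in CTL 1 and Med12cKO 3 (rho −0.55 each), and the slope is opposite in Med12cKO 2 (rho 0.49). Each CTL library is part of the CTL mean, which draws its ratios toward 0.

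The genes that Mediator works with were read against a low background of calls, 0.022% of all genes. None of 12 RNA polymerase II subunits, 18 general transcription factors, 21 elongation genes, 7 cohesin genes and 18 factors that bind Mediator passed edgeR over all genes in either direction. The list medians of the log2 fold change ran from −0.04 to 0.02, beside 0.0081 for all genes tested. Polr2a, the largest polymerase subunit, measured 131, 144 and 144 CPM in CTL and 137, 136 and 105 CPM in Med12cKO (log2 fold change −0.15, SE 0.13). Tbp, the TATA-binding protein, measured 20.9, 17.3 and 23.2 CPM in CTL and 18.6, 18.8 and 20.3 CPM in Med12cKO. Among the other named genes, the polymerase subunit Polr2b had a log2 fold change of −0.0011 (SE 0.11), a value near 0, and the initiation factor Gtf2b −0.17 (SE 0.14). The kinase genes Cdk7, of the general factor TFIIH, and Cdk9, of the elongation factor P-TEFb, were at 0.14 (SE 0.11) and 0.05 (SE 0.14). Ccnt1, a cyclin of Cdk9 but not its only partner, was at 0.59 (SE 0.55), with levels of 0.575 to 3.85 CPM that allow no reading of a difference.

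The cohesin loader gene Nipbl, whose product works with Mediator at enhancers, was at −0.05 (SE 0.13) and the cohesin subunit gene Smc1a at 0.09 (SE 0.14). Of the factors that bind Med12, beta-catenin (Ctnnb1) was at 0.02 (SE 0.12). The repressor Rest was at 0.06 (SE 0.81), with 3.22, 12.4 and 8.03 CPM in CTL and 5.64, 16.6 and 2.37 CPM in Med12cKO. Its low and high libraries within each group were those of the length trend, and the part of that trend in its spread was not tested. The thyroid hormone receptor gene Thra, whose product binds Med1, was at −0.15 (SE 0.15). Fbxw7, part of the ubiquitin ligase that marks Med13 for degradation, was at −0.08 (SE 0.14). An unadjusted p under 0.05 was found for 2 of these 76 genes (2.63%, against 3.78% of all genes), and groups that did not overlap for 3 (3.95%, against 8.23%). These were Gtf2e1 and Rxra by both measures and Ell2 by the second, named after their values were seen. Gtf2e1, a subunit of the general factor TFIIE, measured 36.7, 41.3 and 35.8 CPM in CTL and 31.1, 32.2 and 27.5 CPM in Med12cKO (log2 fold change −0.33, SE 0.13). Rxra, the partner of many nuclear receptors, measured 129, 140 and 132 CPM in CTL and 103, 105 and 111 CPM in Med12cKO (log2 fold change −0.33, SE 0.11, edgeR adjusted p = 0.834). In both genes every Med12cKO library lay below every CTL library. Ell2, an elongation factor, had every Med12cKO library above every CTL library, at 11.4, 12.5 and 12.5 CPM in CTL and 13.8, 14.3 and 14.9 CPM in Med12cKO. None of the 3 passed.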

How the data were processed

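Ventricle RNA of 3 CTL and 3 Med12cKO samples was sequenced. The deposited values are raw counts per gene symbol. The submitters' processing notes name TopHat2 2.0.0, featureCounts and edgeR 3.14.0, and GRCm38 (mm10). Not given in the sources used here are the annotation, the strand setting and any filter, so a gene and its antisense partner cannot be told apart. Another gene model covers exon bases of 18 of the 33 members, and at least 10% of them in 8.

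Columns were matched to samples by description and groups by title. The labels do not tie libraries to animals, and a p-value therefore covers only the spread between these samples, which may be technical. Replicates differed beyond sampling noise, with a chi-square of 14.5 to 30.8 per degree of freedom. A count of 0 allows a level of up to 3 counts, or 0.275 to 0.355 CPM, for counting error only.

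edgeR 4.0.16's quasi-likelihood test with TMM scaling and robust dispersions was run in R 4.3.3 on all genes kept by filterByExpr (minimum count 10, minimum total 15), with Benjamini-Hochberg adjustment at 0.05. The root of F was used to turn each log2 fold change into a standard error. Log2 CPM used a prior count of 2. Alternatives were DESeq2 1.42.0, limma-voom (limma 3.58.1), other scalings, filters and covariates, and each library left out. A term for T-cell transcripts marked libraries where 10 thymus genes averaged at least 10 CPM. The trend of exon length and GC was a robust spline fit with 4 degrees of freedom, over genes with log2 CPM over 3. Lengths, positions and the GC content of transcripts came from GENCODE M21 (GRCm38). A length and a GC value were found for 99.4% of tested genes. The scripts were tested on simulated data with 50 genes changed at each size. Of those changed 1.5-fold, edgeR recovered 18% and DESeq2 20%. Of those changed 2-fold, edgeR recovered 60% and DESeq2 70%. False calls numbered 18 in edgeR and 37 in DESeq2. A gene that was not called may therefore have changed, and a call can be false.

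The members and lists were chosen with earlier results of these data known. Named genes were all members, 14 partner genes picked by role (1 is not reported here), and any partner called. Gtf2e1, Rxra and Ell2 fall outside this rule and were named after their values were seen. Core parts follow the general description of the complex, and the split at 5 kb was set after the data were seen.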

Additional observations from a re-analysis of the deposited data

How the results depend on the processing

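Med12 had a negative log2 fold change in each of the 18 alternatives, from −1.48 (only description letter I) to −0.79 (without CTL replicate 2). It was called by DESeq2 (−1.06, adjusted p = 0.024, with 1 member and 61 of all genes called) and by no other, where its adjusted p ran from 0.168 to 0.999999. No other member was called in any alternative. All genes called numbered 3 in edgeR, 1 in the libraries with letter I and 1 to 3 with 1 library left out (1 without Med12cKO replicate 3). The 25 core intervals within 1.5-fold became 16 with letter I only and 16 without the libraries with T-cell transcripts, which was added after the data were seen. These alternatives hold fewer samples, and the share of all genes within 1.5-fold went from 61.3% to 40.3% and 36.6%. Of 576 alternative values for the other 32 members, 88 had the other sign, and 1 of these was more than 1 standard error from 0 in either fit. That was Med13, at −0.0036 with all libraries and between −0.12 and 0.16 with 1 left out, and the cause was not tested. Per coding length the shares were 12.1% and 26.6% for Med12l, 37.3% and 36.4% for Med13l, and 58.0% and 56.7% for Cdk19, in CTL and Med12cKO. With the replicate number as a block, Med12 was at −1.08 (edgeR adjusted p = 0.168), no member was called, and all genes called numbered 2 in place of 3. Deviations of same-numbered samples correlated at −0.31, 0.44 and −0.35, and the samples did not all correlate best with their own number. The highest correlation, 0.71, was between CTL replicate 3 and Med12cKO replicate 1, the libraries with T-cell transcripts. These deviations include the T-cell transcripts and the length trend, so they cannot decide whether the numbers pair the samples. At this depth the least abundant core member, Med18, had 34 counts in 1 library, which limits its precision.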
